A study of Rattus norvegicus with 24 samples.

Results

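The potassium channel genes are the genes whose symbol begins with Kcn. They were taken from probe sets that carry exactly 1 gene symbol in the platform annotation, and each gene was represented by the probe set with the highest mean signal over all arrays. This gave 54 genes, from 82 probe sets, out of 4736 genes on the array. They were read on 24 single-colour oligonucleotide arrays of whole rat brain, with total RNA as the material. The exposed groups breathed 0.8% halothane 5 times over 2.5 days (3 arrays), 0.8% halothane 10 times over 5 days (3 arrays), 1.0% isoflurane 5 times over 2.5 days (3 arrays) or 1.0% isoflurane 10 times over 5 days (3 arrays). Each exposure lasted 90 min, with 2 exposures a day and 3 h of recovery between them. The 12 control arrays came from rats given halothane for 3 min before perfusion with ice-cold saline. A sham treatment as long as the exposures is not described, and strain, sex, age and the delay before collection after the last exposure are not stated in the labels. Whether the arrays of a group stand for separate animals is not stated, so each p-value reflects variation among these arrays, part of which may be technical. The comparisons address whether repeated exposure to either inhaled anaesthetic went with another level of potassium channel mRNA.

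Potassium channels let potassium leave or enter a cell along its gradient, which sets the resting potential and ends each action potential. Voltage-gated channels (Kcna to Kcnd, Kcnh, Kcnq) open on depolarization, inward rectifiers (Kcnj) hold the resting potential, and two-pore domain channels (Kcnk) carry background current. Channels gated by calcium or sodium (Kcnm, Kcnn, Kcnt) follow activity. Kcnf, Kcng, Kcns and Kcnv subunits carry no current alone and modify other voltage-gated subunits, and Kcnab and Kcne proteins are auxiliary subunits. Some background and G protein-coupled channels are known targets of volatile anaesthetics, halothane and isoflurane among them.

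Promoters are shown for the member with the lowest p-value below control and the member with the lowest p-value above control over all exposed arrays combined, Kcnh4 and Kcnc1. Each sequence runs from 250 bases before the gene's start to 50 bases after it (RefSeq, build GRCr8). Capitals mark GGGCGG on either strand, a motif known as a GC box. The Kcnh4 window lies at chr10:86188427-86188726 on the minus strand and the Kcnc1 window at chr1:106038997-106039296 on the plus strand.
Kcnh4: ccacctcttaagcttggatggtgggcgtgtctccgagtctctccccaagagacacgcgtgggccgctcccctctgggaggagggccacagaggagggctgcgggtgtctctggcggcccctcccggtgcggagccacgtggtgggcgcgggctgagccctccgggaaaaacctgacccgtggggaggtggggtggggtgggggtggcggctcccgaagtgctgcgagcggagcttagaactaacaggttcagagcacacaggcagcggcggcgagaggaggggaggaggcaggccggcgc
Kcnc1: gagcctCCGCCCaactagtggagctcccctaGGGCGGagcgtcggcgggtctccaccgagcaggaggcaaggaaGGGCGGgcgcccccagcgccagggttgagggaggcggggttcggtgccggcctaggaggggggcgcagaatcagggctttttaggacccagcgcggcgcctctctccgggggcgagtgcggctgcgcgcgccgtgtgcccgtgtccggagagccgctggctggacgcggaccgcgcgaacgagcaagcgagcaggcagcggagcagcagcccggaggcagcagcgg
The Kcnh4 window was 70.0% G or C and held 0 matches, and the Kcnc1 window was 74.0% G or C and held 3 matches. Windows were found for 44 of the 54 members. GGGCGG stood in 22 of those 44, beside 33.1% of all 33469 windows of this length. The median G and C content was 62.0% over member windows and 51.7% over all windows. TGACG, the core of the cyclic AMP response element, stood in 20.5% of member windows, beside 21.2% of all. TATAAA stood in 4.55% of member windows, beside 14.2% of all. All searches covered both strands, and TGACG can share its last base with GGGCGG. A match is a string of letters and not a measured site.

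Arrays were scaled alike, with a trimmed mean between 150.1 and 150.2 on every array. The median between arrays ranged from 53.5 to 64.9. Bacterial spike-in probe sets split the arrays across a gap of 0.57 on the log2 scale. The high level held 9 arrays, which were replicate 3 of each exposed group and 5 controls, and the low level held 15 arrays. Neuron markers were present, as the labelled tissue requires: 6 of 10 listed genes were on the array and all 6 were above the floor on most arrays. Their summed signal was 4522 to 7567 over the exposed arrays and 5534 to 7320 over control arrays. In whole brain, fewer cells of a type and less RNA per cell cannot be told apart.

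Most of these channels were measurable. The floor was a signal of 16.5, the 25th percentile of the table. Signal stood above it on all 24 arrays for 33 of the 54 genes and on 3 to 23 arrays for 14. These 47 genes passed the filter on low values and were tested. The other 7 did not pass: Kcna3 and Kcnj13 were above the floor on 1 or 2 arrays, and Kcnj2, Kcnj6, Kcnj9, Kcnn3 and Kcnq1 on 0 arrays. Kcnj6 and Kcnj9 encode channels gated by G proteins in neurons, Kcnj2 a classical strong inward rectifier, and Kcnn3 a small-conductance calcium-activated channel. Kcnj13 is a channel of the choroid plexus, and its control signal was 2.1 to 13.9 while 5 of 7 choroid plexus markers were on the array and above the floor on most arrays. Each array had between 40 and 46 of the 54 genes above the floor. A signal at the floor gives only a bound on the level, and levels of different probe sets are not compared here because probe sets differ in brightness.

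The subfamilies differed in how many members could be read. All 8 Kcnh genes and all 3 Kcnc genes were above the floor on every array. Of 6 Kcna genes, 5 passed and only Kcna1, an axonal delayed rectifier subunit, was above the floor on every array. Of 15 Kcnj genes, 11 passed and 7 were above the floor on every array. Both Kcnd genes, Kcnd2 and Kcnd3 of the A-type current, were above the floor on every array, as were both Kcnm genes. Of 3 Kcnk genes, 3 passed and Kcnk1 alone was above the floor on every array. Kcnk2, Kcnk4, Kcnk9, Kcnk10 and Kcnk18, listed beside Kcnk3 as anaesthetic-sensitive two-pore channels, were not among the members and were not read here. The brightest probe sets of each subfamily had these control signals (mean ± SD, n = 12 throughout). In the voltage-gated subfamilies they were 445 ± 54.6 for Kcna1, 38.9 ± 17.5 for Kcna5 and 35.3 ± 7.89 for Kcna6. They were 373 ± 91.7 for Kcnc1, 276 ± 78.3 for Kcnc2 and 164 ± 42.5 for Kcnc4, and 195 ± 35.1 for Kcnd2 and 75.4 ± 19.0 for Kcnd3. Kcnc2, like Kcnc1, serves fast spiking. Kcnh3 averaged 623 ± 86.9, Kcnh2 233 ± 22.2, Kcnh1 149 ± 18.1 and Kcnq3 127 ± 41.9. The silent subunits Kcnv1, Kcnf1 and Kcng1 averaged 108 ± 23.3, 101 ± 17.8 and 84.9 ± 14.9. All of these except Kcna5 and Kcna6 were above the floor on every array. Among the inward rectifiers Kcnj11 averaged 261 ± 44.4, Kcnj1, a channel best known from the kidney, 111 ± 17.4 and Kcnj4 99.8 ± 28.7. The two-pore members averaged 456 ± 149 for Kcnk1, 39.3 ± 15.4 for Kcnk5 and 16.8 ± 5.64 for Kcnk3. The last of these sat at the floor on most arrays. Kcnmb1 averaged 227 ± 31.3, Kcnma1 61.7 ± 13.8, Kcnn1 72.9 ± 16.6 and Kcnt1 50.3 ± 18.6. The auxiliary subunits averaged 676 ± 110 for Kcnab2, 139.5 ± 29.1 for Kcnab1, 37.4 ± 12.2 for Kcnab3 and 62.7 ± 17.7 for Kcne1. Across tested members, the median coefficient of variation over the control arrays was 24.6%.

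No potassium channel gene passed the test in any of 10 comparisons (limma, Benjamini-Hochberg adjusted p under 0.05 over 7389 probe sets). Against control, 0 of 47 members passed after 5 exposures to halothane, where 0.0135% of all probe sets did. After 10 exposures to halothane 0 of 47 passed, where 0.0406% of all probe sets did. After 5 or 10 exposures to isoflurane, and with all 12 exposed arrays combined, 0 of 47 members and 0% of all probe sets passed. The 5 comparisons with control share the same 12 control arrays. Before adjustment, a p under 0.05 was reached by 1 of 47 members after 5 halothane exposures (2.13%, beside 3.53% of all probe sets) and by 2 after 5 isoflurane exposures (4.26%, beside 2.14%). It was reached by 6 after 10 halothane exposures (12.8%, beside 7.52%), 11 after 10 isoflurane exposures (23.4%, beside 9.05%) and 8 over all exposed arrays (17.0%, beside 8.44%). Of the 11 after 10 isoflurane exposures, 9 were lower and 2 higher than control. Of all probe sets, 4.59% were lower and 4.47% higher at that threshold. Of the 6 after 10 halothane exposures, 5 were lower and 1 higher, beside 4.14% lower and 3.38% higher of all probe sets.

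The members as a whole sat close to the control level. The median log2 fold change was -0.03 after 5 and -0.07 after 10 exposures to halothane, beside -0.01 and -0.03 over all probe sets tested. It was 0.00 after 5 and -0.04 after 10 exposures to isoflurane, beside 0.01 and 0.00 over all. After 10 halothane exposures 32 of 47 members were below control (68.1%), beside 56.2% of all probe sets. The precision limits what these comparisons can show. The median 95% interval of a member reached 0.46 to either side for a group of 3 arrays against control, and 0.29 for all exposed arrays against control.

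**Figure D1:**
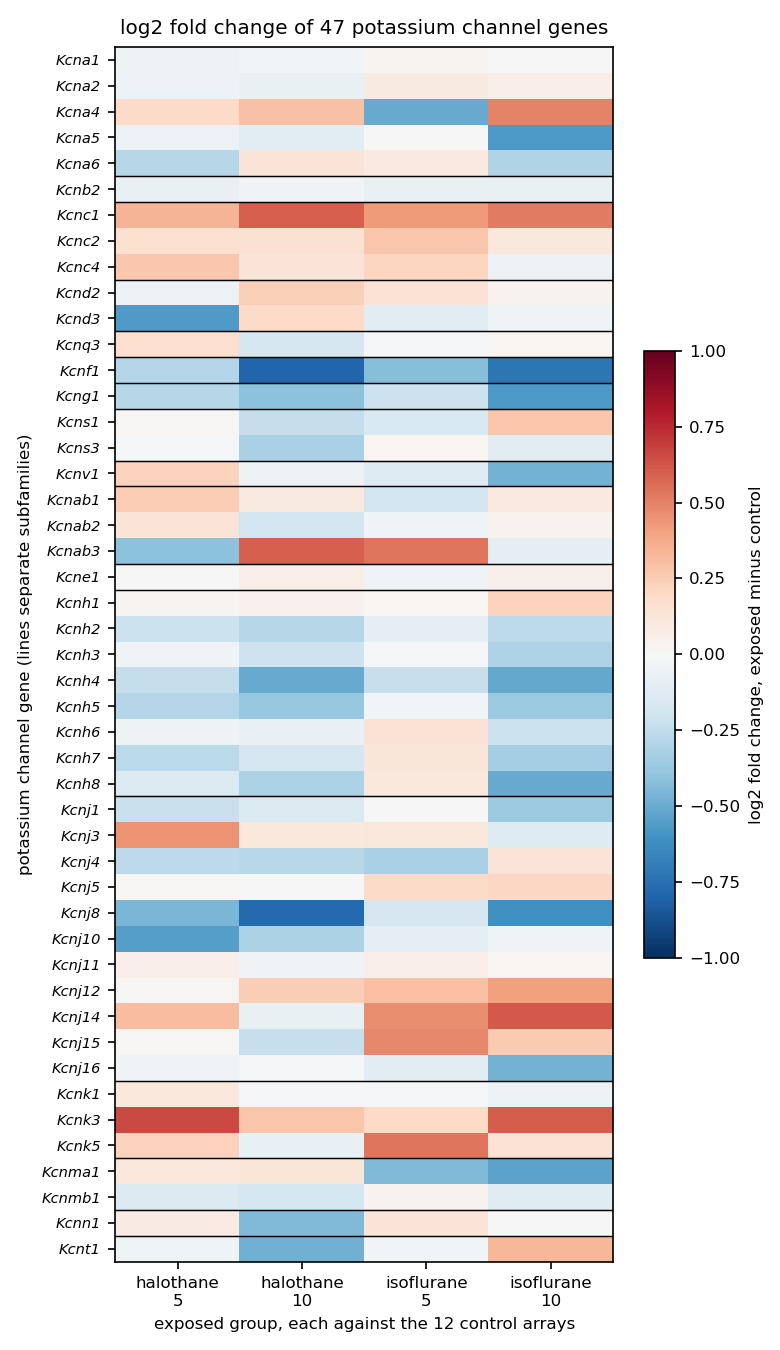
Log2 fold change of the 47 tested potassium channel genes (rows, ordered by subfamily) in each exposed group against the 12 control arrays (columns: halothane 5 and 10 exposures, isoflurane 5 and 10 exposures). Colour gives the direction and size, and no cell passed the test. The rows of the Kcnh genes are mostly below control after 10 exposures, with Kcnh1 the exception, and the Kcnc1 row is above control in all 4 columns.

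Among channels of the ether-a-go-go family (Kcnh), 7 of 8 members lay below control after 10 exposures to either agent, and none passed the test. The family holds the ether-a-go-go channels proper (Kcnh1, Kcnh5), the Erg channels (Kcnh2, Kcnh6, Kcnh7), known from cardiac repolarization, and the Elk channels (Kcnh3, Kcnh4, Kcnh8). Its median log2 fold change was -0.25 after 10 halothane exposures and -0.33 after 10 isoflurane exposures, against -0.03 and 0.00 over all probe sets. Kcnh1 was the exception, at 0.05 and 0.23. After 5 exposures, 7 of 8 were below control with halothane and 4 of 8 with isoflurane. Of all probe sets, 56.2% and 50.5% were below control after 10 exposures to halothane and isoflurane, and 51.8% and 48.4% after 5.

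Kcnh4, an Elk channel of neurons, had the lowest p-value of any member over all exposed arrays. Its signal was 75.7, 74.3 and 82.9 after 5 and 69.3, 68.6 and 56.3 after 10 exposures to halothane. It was 83.1, 72.1 and 78.7 after 5 and 63.7, 77.7 and 52.9 after 10 exposures to isoflurane, while control arrays ran from 69.1 through a median of 93.8 to 113.9. All 12 exposed arrays were below the control median, and 4 of them, all after 10 exposures, were below the lowest control array. Over all exposed arrays its log2 fold change was -0.37 ± 0.09 (SE; 95% interval -0.57 to -0.18), which did not pass (limma, adjusted p = 0.261). After 10 exposures it was -0.50 ± 0.15 with halothane (adjusted p = 0.304) and -0.51 ± 0.15 with isoflurane (adjusted p = 0.302). On the 15 low spike-in arrays alone these were -0.41 and -0.38, and among the 9 high spike-in arrays, where each exposed group has 1 array, -0.70 and -0.79.

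Kcnh2 was the only member whose 3 arrays after 10 halothane exposures did not overlap the control arrays, beside 0.528% of all probe sets lying wholly below control and 0.595% wholly above. Its signal there was 201.4, 173.6 and 199.0, against 213.9 to 278.0 over control arrays. It was 185.4, 200.2 and 217.8 after 5 halothane exposures, 212.1, 211.3 and 232.3 after 5 and 160.0, 231.5 and 197.6 after 10 isoflurane exposures. Its fold change on the log2 scale was -0.21 over all exposed arrays (adjusted p = 0.361). A second, dimmer Kcnh2 probe set had the opposite sign, at 0.23 with an interval of 0.56 to either side.

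Kcnh8 and Kcnh3 were lower after 10 isoflurane exposures without passing. Kcnh8 had signals of 54.3, 91.6 and 53.0 after 10 and 90.9, 100.3 and 101.7 after 5 exposures to isoflurane, against 64.1 to 110.5 in controls with a median of 93.1. Its arrays 1 and 3 after 10 exposures lay below every control array, and its array 2 lay inside the control range. The log2 fold change after 10 isoflurane exposures was -0.50 ± 0.17 (adjusted p = 0.382). Kcnh3 had signals of 450.3, 606.8 and 450.4 after 10 isoflurane exposures and of 553.3, 500.0 and 548.5 after 10 halothane exposures, against 508.2 to 791.9 in controls. Its arrays 1 and 3 under isoflurane were below every control array and array 2 was not, as for Kcnh8. Arrays 1 and 3 also had lower medians over all probe sets (55.4 and 55.9) than array 2 (63.5), within the control range of 53.5 to 64.9. Their mean log2 signal over the tested members was 6.15 on each, beside 6.28 on array 2. Kcnh2, Kcnh4, Kcnh5 and Kcnj8 were also highest on array 2 of this group, while Kcnh1, Kcnh6 and Kcnh7 were lowest on it. What part of the values of these genes, and of the Kcnh counts after 10 isoflurane exposures, goes with this difference between arrays was not tested. The log2 fold change of Kcnh3 was -0.31 after 10 isoflurane exposures (adjusted p = 0.415).

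**Figure D2:**
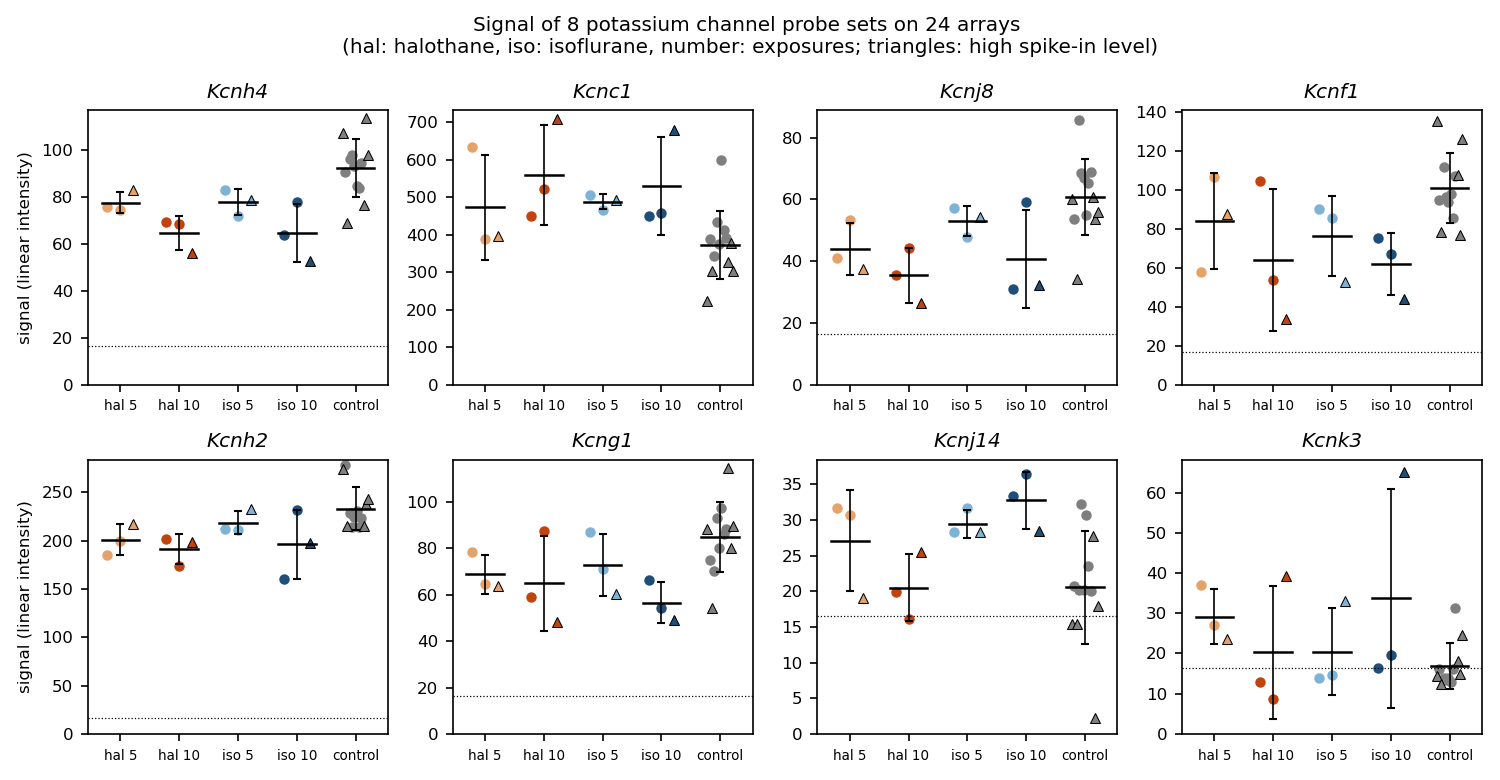
Signal (linear intensity, axes from 0) of 8 potassium channel probe sets on each of the 24 arrays, by group, with halothane and isoflurane groups left of control, horizontal lines for group means, error bars for the SD, triangles for arrays of the high spike-in level and a dotted line at the floor of 16.5 where the scale shows it. All 12 exposed arrays lie below the control median of 93.8 for Kcnh4 and 60.5 for Kcnj8, and the Kcnc1 arrays of replicate 3 after 10 exposures (708.2 with halothane, 680.2 with isoflurane) stand above all control arrays.

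Of the other voltage-gated subunits, Kcnc1 stood above control in every exposed group without passing. Kcnc channels repolarize fast-spiking neurons. Kcnc1 signals were 634.0, 387.7 and 397.9 after 5 and 450.2, 522.7 and 708.2 after 10 exposures to halothane. They were 506.7, 466.4 and 491.9 after 5 and 450.9, 459.1 and 680.2 after 10 exposures to isoflurane, and control arrays ran from 223.7 through a median of 376 to 599.6. All 12 exposed arrays were above the control median, and 3 of the 12 were above the highest control array. Over all exposed arrays its log2 fold change was 0.47 ± 0.13 (SE; 95% interval 0.21 to 0.73; limma, adjusted p = 0.303). It was 0.21 on the low spike-in arrays alone and 0.87 on the high spike-in arrays alone, so its size moved with the spike-in level. What part of the difference belongs to that level was not tested.

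On their brightest probe sets, the relatives of Kcnc1 were closer to control. Other probe sets of Kcna1 and Kcnd2 are given below. Kcnc2 was 0.17 and Kcnc4 0.14 above control on the log2 scale over all exposed arrays (adjusted p = 0.745 and 0.780). Kcna1 was at -0.01 with an interval of 0.21 to either side, and Kcnq3, a subunit of the M current that limits repetitive firing, was at 0.00 (adjusted p = 0.999). Kcnd2 was at 0.09 and Kcnd3 at -0.13. Kcna2, Kcna4, Kcna5 and Kcna6 ranged from -0.19 to 0.12, and Kcnb2, above the floor on 3 arrays, was at -0.07.

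The subunits that modify other channels also lay mostly below control after 10 exposures, and none passed. After 10 halothane exposures, 5 of 5 (Kcnf1, Kcng1, Kcns1, Kcns3, Kcnv1) were below control, beside 56.2% of all probe sets. After 10 isoflurane exposures 4 of 5 were below control, beside 50.5% of all probe sets. The median log2 fold change was -0.33 with halothane and -0.47 with isoflurane. Kcns1 signals after 10 halothane exposures were 16, 8.7 and 5.4, all under the floor. The sign of Kcns1 there comes only from the 4 control arrays above the floor. Kcnf1 had signals of 104.3, 53.8 and 33.6 after 10 halothane exposures and of 75.0, 66.8 and 44.0 after 10 isoflurane exposures, against 76.8 to 135.3 in controls. The 3 isoflurane arrays all lay below the lowest control array, beside 0.433% of all probe sets wholly below control and 0.487% wholly above, while halothane array 1 lay inside the control range. After 5 exposures Kcnf1 signals were 57.5, 106.5 and 87.7 with halothane and 90.0, 85.6 and 52.4 with isoflurane.

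The log2 fold change of Kcnf1 was -0.79 ± 0.26 after 10 halothane exposures (adjusted p = 0.399) and -0.72 after 10 isoflurane exposures (limma, adjusted p = 0.382). Array 3 carried much of the first value, which was -0.41 without it. Over all exposed arrays the value was -0.56 ± 0.16 (adjusted p = 0.320), and it was -0.33 on low and -0.997 on high spike-in arrays. Kcng1 had signals of 66.4, 54.3 and 49.0 after 10 isoflurane exposures and of 59.0, 87.6 and 48.2 after 10 halothane exposures, against 54.4 to 114.8 in controls. These ranges overlapped. Its log2 fold change was -0.58 ± 0.19 with isoflurane (adjusted p = 0.370) and -0.41 with halothane (adjusted p = 0.660). Kcnv1, a silent subunit of cortex and hippocampus, was -0.47 after 10 isoflurane exposures, with signals of 85.6, 89.5 and 56.5 against 58.0 to 142.3 in controls. Kcns1 was at or below the floor on most arrays.

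Among the inward rectifiers, Kcnj8 was the member furthest below control over all exposed arrays and after 10 exposures to either agent, and it did not pass. After 5 exposures Kcnj10 was further below control with halothane (-0.55) and Kcnj4 with isoflurane (-0.33). The 3 Kcnj10 signals with halothane were 46.8, 57.6 and 9.0, the last under the floor. A dimmer Kcnj10 probe set was at 0.32 in the same comparison. Kcnj8 forms the pore of the ATP-sensitive channel of pericytes and vascular smooth muscle, with the sulphonylurea receptor Abcc9 as its partner. Its signals were 41.0, 53.4 and 37.4 after 5 and 35.5, 44.2 and 26.5 after 10 exposures to halothane. They were 57.3, 47.7 and 54.2 after 5 and 31.0, 59.0 and 32.1 after 10 exposures to isoflurane, with 34.1 to 85.8 in controls and a control median of 60.5. All 12 exposed arrays were below the control median. Its log2 fold change was -0.78 ± 0.22 after 10 halothane exposures (limma, adjusted p = 0.292) and -0.61 after 10 isoflurane exposures (adjusted p = 0.383). It was -0.50 ± 0.14 over all exposed arrays (adjusted p = 0.303), -0.54 on the low and -0.52 on the high spike-in arrays. As for Kcnh3 and Kcnh8, the Kcnj8 signal after 10 isoflurane exposures was highest on array 2. The part of that difference between arrays was not tested.

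Abcc9 averaged 135 ± 59.3 after 10 halothane exposures and 217 ± 56.7 in controls (SD, n = 3 and 12), a log2 fold change of -0.72 (adjusted p = 0.593), and -0.07 after 10 isoflurane exposures. Of 7 endothelial markers 4 were on the array, and their summed signal was 324 to 409 after 10 halothane exposures, 352 to 491 after 10 isoflurane exposures and 349 to 492 in controls. Of 6 blood markers 4 were on the array, with sums of 437 to 470 after 10 halothane exposures, 388 to 659 after 10 isoflurane exposures and 543 to 996 in controls. The haemoglobin genes Hbb and Hbb-b1 were -0.91 and -1.15 after 10 halothane exposures on the log2 scale. No marker list was drawn up for pericytes or vascular smooth muscle, so these sums do not report on those cells. The part of vessel or blood cells in the Kcnj8 values was not tested.

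Kcnj14 lay above control in both isoflurane groups, at low signals. They were 33.4, 36.4 and 28.5 after 10 and 28.3, 31.7 and 28.3 after 5 isoflurane exposures, against 2.3 to 32.3 in controls with a median of 20.2. After halothane they were 31.7, 30.7 and 19.0 with 5 exposures and 19.9, 16.1 and 25.5 with 10. The log2 fold change after 10 isoflurane exposures was 0.61 ± 0.20 (adjusted p = 0.370). Of the G protein-coupled channels, Kcnj3 was the only member above the floor on most arrays. It averaged 53.8 ± 13.3 and 46.6 ± 23.1 after 5 and 10 halothane exposures, 43.0 ± 12.2 and 37.7 ± 24.4 after 5 and 10 isoflurane exposures, and 42.0 ± 18.4 in controls (SD, n = 3, 3, 3, 3 and 12). Its log2 fold change over all exposed arrays was 0.14 (95% interval -0.41 to 0.68), a span to both sides of 0. Kcnj5 was above the floor on 5 arrays only, and Kcnj6 and Kcnj9 on 0.

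The neuronal and pancreatic ATP-sensitive subunit Kcnj11 was precise and close to control. Its signal was 226.3 to 322.6 over exposed arrays and 160.1 to 353.5 over controls, with a log2 fold change of 0.03 (95% interval -0.16 to 0.22). Kcnj10, the main inward rectifier of astrocytes, was at -0.25 (limma, adjusted p = 0.765). Its second probe set, above the floor on 7 arrays, was at 0.11. Kcnj1, Kcnj4, Kcnj12, Kcnj15 and Kcnj16 ranged from -0.18 to 0.24.

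Kcnk3, a two-pore domain channel that volatile anaesthetics are known to activate, was dim. It was above the floor on 10 of 24 arrays. Its signals were 36.9, 27.0 and 23.6 after 5 and 12.9, 8.8 and 39.3 after 10 exposures to halothane. They were 13.8, 14.6 and 33.0 after 5 and 16.4, 19.7 and 65.1 after 10 exposures to isoflurane, with 12.5 to 31.4 in controls and a median of 14.6. All 3 arrays after 5 halothane exposures were above the floor of 16.5, while the control median and at least 1 array of each other exposed group were under it. Below the floor the order of signals is not a reading. In each other exposed group Kcnk3 was highest on array 3, which is at the high spike-in level. Its log2 fold change was 0.66 ± 0.32 after 5 halothane exposures (adjusted p = 1), 0.61 ± 0.32 after 10 isoflurane exposures (adjusted p = 0.570) and 0.44 over all exposed arrays (adjusted p = 0.563), and the floor understates such values. A second Kcnk3 probe set was above the floor on 0 arrays. Kcnk1, a weakly conducting background channel, was at 0.01 (95% interval -0.24 to 0.25) and Kcnk5 at 0.21.

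Channels gated by calcium or sodium and the auxiliary subunits gave small values. Over all exposed arrays, the large-conductance pore Kcnma1 was at -0.18, its smooth muscle subunit Kcnmb1 at -0.10, the small-conductance channel Kcnn1 at -0.06 and the sodium-activated channel Kcnt1 at -0.06 on the log2 scale. The cytoplasmic beta subunits were at 0.06 for Kcnab1, -0.02 for Kcnab2 and 0.16 for Kcnab3, and Kcne1, the partner of Kcnq1, was at 0.02. The lowest adjusted p among these was 0.740. The average covers opposite values of Kcnma1. It was at -0.44 after 5 and -0.54 after 10 isoflurane exposures, beside 0.12 after 5 and after 10 halothane exposures. Halothane minus isoflurane gave 0.55 at 5 and 0.66 at 10 exposures, and none of these passed. A second, dimmer Kcnma1 probe set was at -0.34 after 5 and 0.37 after 10 isoflurane exposures.

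**Figure D3:**
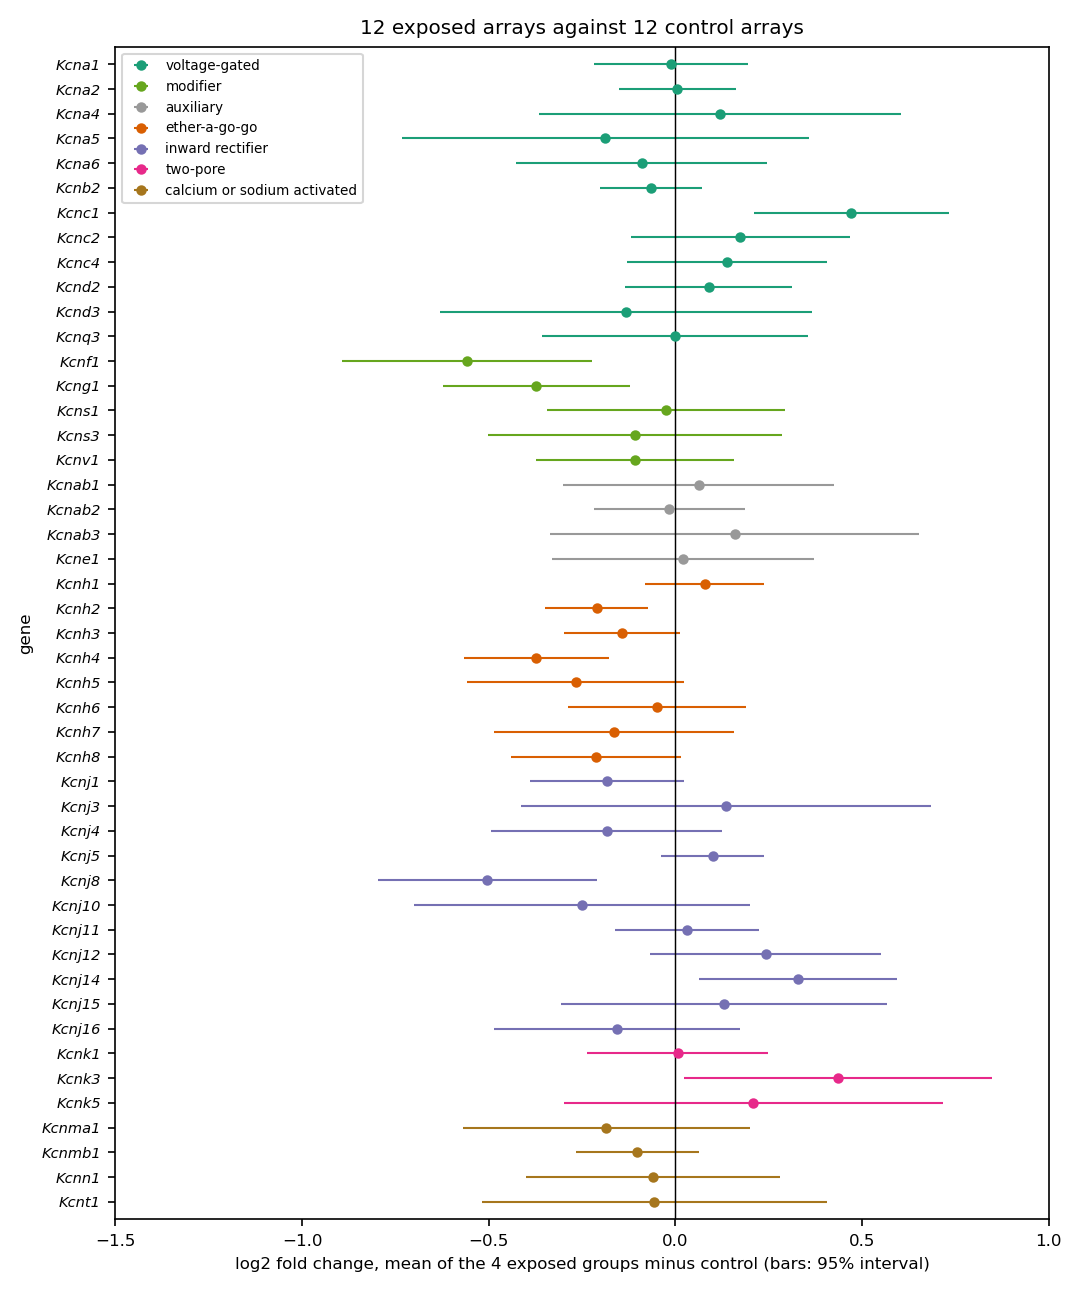
Log2 fold change of the 47 tested potassium channel genes (y axis, ordered by subfamily and coloured by channel class), the mean of the 4 exposed groups minus control (x axis, bars are 95% intervals). The intervals of 5 members (Kcnf1, Kcng1, Kcnh2, Kcnh4 and Kcnj8) lie wholly below 0 and those of 3 (Kcnc1, Kcnj14 and Kcnk3) wholly above it, and no member passed the adjusted test.

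Set against each other, the agents and the numbers of exposures gave no member that passed. These comparisons were fitted without a replicate block. At 5 exposures 0 of 47 members passed between halothane and isoflurane, where 0.0135% of all probe sets did, and at 10 exposures 0 of 47 passed, where 0% did. The lowest p-values were those of Kcnab3 at 5 exposures (log2 difference -0.94 ± 0.48, SE) and of Kcnj14 at 10 exposures (-0.68 ± 0.26), each with an adjusted p of 1. Before adjustment a p under 0.05 was reached by 0 of 47 members at 5 exposures, beside 2.98% of all probe sets, and by 1 at 10 exposures, beside 3.11%. Between 10 and 5 exposures 0 of 47 members passed with halothane, where 0.0135% of all probe sets did, and 0 of 47 with isoflurane, where 0% did. With isoflurane the lowest p-values were those of Kcnh8, at -0.60 ± 0.22, and Kcna4, at 1.00 ± 0.47 (adjusted p = 1 each). Kcna4 had signals of 21.8, 74.2 and 26.2 after 10 isoflurane exposures and of 9.4, 19.3 and 9.6 after 5, and its value was 0.46 without array 2 of the 10 exposures.

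In the Kcnh family, 7 of 8 members were lower after 10 than after 5 isoflurane exposures (median -0.32), and 6 of 8 after 10 than after 5 halothane exposures (median -0.08). These contrasts share no arrays, but deviations from the group mean correlated between same-numbered arrays (0.26, 0.22 and 0.47 for halothane 10 with isoflurane 10). They are therefore not independent repeats, and the 8 genes were read on the same arrays. Of all probe sets, 50.7% were lower after 10 than after 5 isoflurane exposures and 52.3% after 10 than after 5 halothane exposures. Over all members the medians were -0.14 and -0.07. For halothane the lowest p-value was that of Kcnab3, at 1.01 ± 0.48. Array 3 set it, with signals of 31.2, 32.2 and 157.1 after 10 and 36.3, 32.4 and 12.1 after 5 exposures, and the value was 0.24 without array 3 of the 10 exposures. The interaction of agent and number gave 0 of 47 members and 0% of all probe sets, with Kcnab3 at 1.63 (adjusted p = 1). Before adjustment a p under 0.05 was reached by 1 of 47 members in halothane 10 against 5 (beside 3.76% of all probe sets), by 2 in isoflurane 10 against 5 (beside 3%) and by 1 in the interaction (beside 2%). A median 95% interval of 0.59 to either side for 3 against 3 arrays bounds what these contrasts can resolve.

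Several probe sets of a gene gave a further reading. Kcnh4, Kcnc1, Kcnj8, Kcnf1, Kcng1 and Kcnj14 have 1 probe set each, so there is no such reading for them. Of 17 genes with more than 1 tested probe set, 7 had the same sign on all of them over all exposed arrays and 10 had mixed signs. These genes had 40 tested probe sets, of which 0 passed (limma) and 5 had an unadjusted p under 0.05 over all exposed arrays, where 8.44% of all probe sets did. The second Kcnh3 probe set was lower too, at -0.41 beside -0.14, while the second Kcnh8 probe set lay near the floor, at 0.03. A dim further Kcnj1 probe set was at -0.54 (limma, adjusted p = 0.309), beside -0.18 and -0.17 on the brighter ones. A second Kcnd2 probe set was at 0.39 beside 0.09, and a second Kcna1 probe set at 0.22 beside -0.01.

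**Figure D4:**
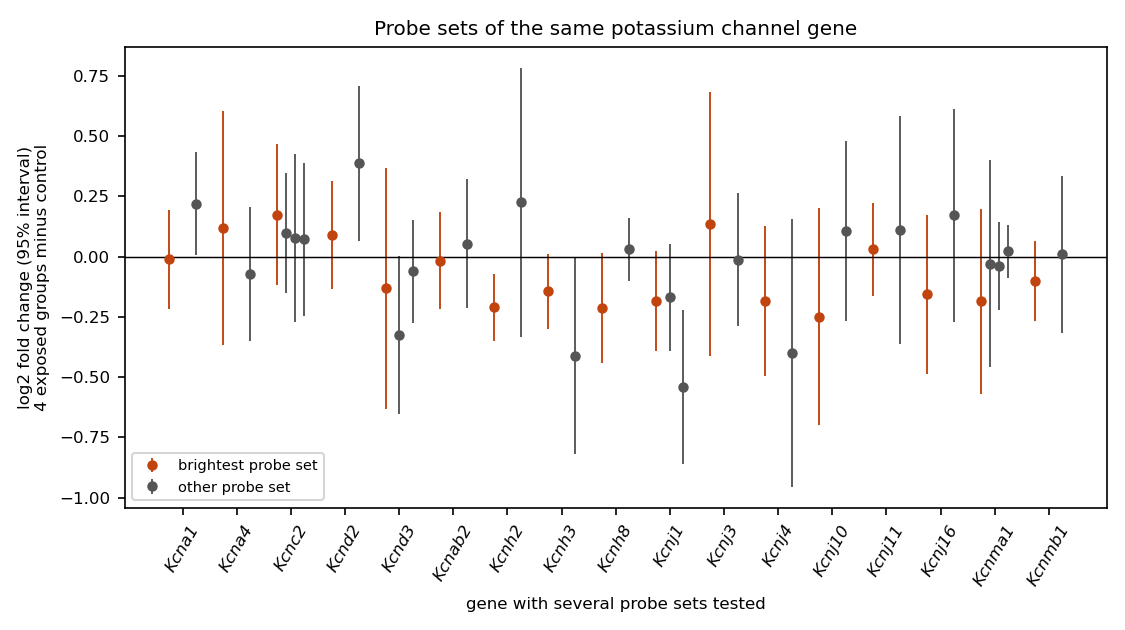
Log2 fold change, the mean of the 4 exposed groups minus control, with 95% intervals, for each tested probe set of the 17 potassium channel genes with several (x axis, genes). Points of a gene lie on both sides of 0 for 10 of the 17 genes, Kcnh2 at -0.21 and 0.23 among them.

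Genes that act beside these channels gave no call either. Of 33 listed partners (sulphonylurea receptors, scaffolds, sodium pump subunits and chloride cotransporters), 19 were on the array and tested, and 0 passed in any comparison with control (limma). Between 0% and 0.0406% of all probe sets passed in those comparisons. Before adjustment a p under 0.05 was reached by 1 partner after 5 and 1 after 10 halothane exposures, beside 3.53% and 7.52% of all probe sets. It was reached by 0 partners in the other comparisons with control. There the share of all probe sets was 2.14% after 5 and 9.05% after 10 isoflurane exposures, and 8.44% over all exposed arrays. The median log2 fold change of the partners was 0.07 after 10 halothane exposures, -0.03 after 10 isoflurane exposures and 0.00 over all exposed arrays. Calm2, a calmodulin gene whose product is a subunit of small-conductance channels, was at 0.18 after 10 halothane and 0.21 after 10 isoflurane exposures. Dlg1, a scaffold that clusters Kcna and Kcnj channels, was at 0.39 ± 0.32 (SE) after 10 exposures to either agent. After 5 exposures the lowest p-values were those of the cotransporter Slc12a4 with halothane, at -0.44, and of Abcc8, the partner of Kcnj11, with isoflurane, at -0.42.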

How the data were processed

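Linear intensities, 1 for each probe set on each array, were used as the authors deposited them. The software that summarised and scaled the arrays and any detection calls are not given in the sources used here. Of 8799 probe sets, 59 control probe sets were left out. Values under 16.5, the 25th percentile, were raised to 16.5 before taking log2, which understates changes of dim genes. A probe set was tested if 3 or more arrays exceeded that floor (7389 did). limma 3.58.1 in R 4.3.3 fitted all 24 arrays with 5 groups (two-sided, eBayes with an intensity trend, Benjamini-Hochberg over 7389, threshold 0.05), and the code was tested on simulated data. Symbols came from the platform annotation. All 54 were found in the current RefSeq table and 0 had changed. For arrays, their number limits the precision.

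Members, lists and comparisons were chosen with earlier results of these data known. Chosen for naming were the 4 members with the lowest p in each comparison with control and the 2 lowest in each other comparison. So were the 3 with the highest control signal per subfamily, members mostly at the floor and anaesthetic-sensitive members. Genes whose probe sets differ in sign and up to 3 partners per comparison with control were chosen too. Not all of these are described above in their comparison. Kcnt1 between the agents at 10 exposures, Kcnab2 in halothane 10 against 5 and Kcna6 in the interaction are left out there. Kcnj5 after 5 isoflurane exposures is left out there too. A few members, among them Kcnh1, Kcnh3 and Kcnv1 in the comparisons, were added after their values were seen. The labels number the replicates. Deviations of same-numbered arrays correlated between -0.18 and 0.52 over 30 pairs of arrays. Every pair exceeded 0.1 for halothane against isoflurane at 10 exposures and for isoflurane 10 against 5, so the numbers may pair those arrays. The same held for halothane 10 with isoflurane 5 and for halothane 5 with isoflurane 10, which were not compared, and for no pair of groups that included control. Replicate 3 of each exposed group is also at the high spike-in level, and the part of that level in these correlations was not tested. The values reported come from the fit without a replicate block. For halothane against isoflurane at 10 exposures and for isoflurane 10 against 5, 0 members passed under any alternative. No pair of arrays held identical values, and correlations between arrays ran from 0.944 to 0.983. Alternatives covered normalization, floor, filter, variance model, weights, samples in the fit, replicate block, spike-in level and the probe sets of a gene.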

Additional observations from a re-analysis of the deposited data

How the results depend on the processing

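Counts of members called were 0 in 146 of 149 recomputations under other settings and in 240 of 240 that left out 1 array. With the replicate block, where the numbers may pair only some groups, 1 member passed over all exposed arrays (Kcnc4, 0.67, limma adjusted p = 0.0408). The block changed no other count. Controls 4 to 12 carry numbers that no exposed array has, so only controls 1 to 3 set the control level in that fit. Their Kcnc4 signals were 99.6, 112.5 and 119.1, and the next lowest control signal was 130.8. On the high spike-in arrays alone, a setting chosen after seeing the data with 1 array per exposed group, whose spread is taken to be that of the controls, 1 member passed after 5 isoflurane exposures (Kcnj5, 0.43, adjusted p = 0.0312) and 1 between halothane and isoflurane at 5 (Kcnj5, -0.43, adjusted p = 0.0395). Kcnj5 was above the floor on 5 of 24 arrays, and arrays at the floor have no spread. Medians over the members moved by more than the spread between arrays in 4 of 149 recomputations. The median for isoflurane 10 against 5 was -0.048 with no filter, and -0.195 to -0.048 with 1 array left out. With the replicate block the medians against control were 0.025 for halothane 10 and 0.088 for isoflurane 5, and the isoflurane 5 median was 0.13 on high spike-in arrays. Of the named members' values, 425 of 427 kept their sign and their side of the threshold, and 720 of 720 did with 1 array left out. Kcnab3 in halothane 10 against 5 turned to -0.11 on low spike-in arrays, and the cause was not tested. The strict filter left some named members without a value. Restricting the fit to the compared groups does not differ from the fit reported where all exposed arrays meet control.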
